A study of Bos taurus with 64 samples.

Results

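The response of the Semitendinosus muscle (ST) to stress before slaughter was followed in Normand cows fed an antioxidant-supplemented diet. The arrays were chosen by their labels alone, as those of the ST from cows on the 'Lipid VitE PERP' ration, and there were 16 of them among the 64 arrays of the series. The 'Moderated stress' group held 8 cows that were isolated from other cattle while travelling by lorry and then spent 30 minutes in a labyrinth on a farm they did not know. The 'Limited stress' group held 8 cows that were also transported, but with a companion, and were handled calmly without the labyrinth. All 16 cows ate straw and concentrate enriched in lipids from extruded linseed and rapeseed, to which vitamin E and the plant mixture PERP had been added (EP diet). The 16 cows of the control diet received the 'Lipid-rich' ration without these antioxidants, in 2 groups of 8 with the same names. All cows were about 4.5 years old, and the ST and the Longissimus thoracis (LT) of each were frozen within 15 minutes of slaughter, so each ST array had an LT array of the same cow. The stress combined isolation and the labyrinth, and their effects cannot be told apart. The day of slaughter, spread over 16 weeks, was not given for single cows and was not in the model.

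Acute stress releases catecholamines and glucocorticoids, and in skeletal muscle these hormones act on fuel choice and on transcription. Immediate early genes such as FOS encode transcription factors that are induced within minutes without new protein synthesis, whereas glucocorticoid targets such as PDK4 follow the glucocorticoid receptor. Vitamin E stops lipid peroxidation in membranes, and the enzymes that remove peroxides and superoxide (peroxiredoxins, glutathione peroxidases, superoxide dismutases) form the cell's own defence.

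Each level below is a log2 signal relative to the 75th percentile of the array, so that 0 is the signal of the probe at that percentile, and each fold change is stressed cows over cows handled with limited stress, on the log2 scale with its standard error. The 75th percentile lay between 2628 and 3190 units in the 8 arrays of limited stress and between 2470 and 4202 in those of the stressed cows. Between 72.9% and 80.9% of probes were well above background, and each array correlated with the median of its group at 0.990 or more. No array stood apart. The 16 arrays lay on 5 slides, each of which held both groups. Skeletal muscle markers had 15 transcripts tested, from 8 of 9 listed genes, and none was called between the groups (median log2 fold change -0.06). Their summed linear level was 692 to 813 times the 75th percentile in cows of limited stress and 444 to 853 in stressed cows. Among the markers of slow and fast fibres, endothelium, fat, fibroblasts, leucocytes, nerve and satellite cells, no transcript was called either, and the blood markers on the array were too dim to be tested. The share of a cell type and the RNA per cell cannot be told apart in whole muscle.

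A transcript, here a named gene probe or a custom set of probes, counted as changed (called) if the limma adjusted p (Benjamini-Hochberg) was under 0.1, in a single direction, for 80% or more of the probes tested for it. In the ST of cows on the EP diet, stress changed 33 of 4246 transcripts (0.777%), which stood for 25 genes or unnamed transcripts. Of the 33 transcripts, 24 were higher in the stressed cows (0.565% of those tested) and 9 were lower (0.212%). The higher ones stood for 17 genes or unnamed transcripts and the lower ones for 8. In 8 genes, both the named probe and a custom set were called, and they are not independent, because the pair shared 25 or more consecutive bases. The values of 8 cows against 8 did not overlap for 15 transcripts (0.353% of those tested), 8 higher and 7 lower. These included ETS2, IFRD1 (by its named probe only), HYAL2, PLAUR and MYOG, and also 4 that were not called, Target254, Target1825, TBP and TREM1. The median log2 fold change of all tested transcripts was -0.05, and 34.6% lay above 0. This balance depended on the scaling: with the control features as reference, 18 transcripts were called higher and 1 lower, after normexp background correction 17 and 2, and without scaling 33 and 3. Those settings moved the median of all transcripts to 0.10, 0.10 and 0.11. In simulated arrays of this design, 44.8% of changes of 0.5 log2 units, 80.6% of changes of 1 and 100% of changes of 2 were recovered. Those arrays held 67, 67 and 66 changed transcripts of these sizes, and 10 unchanged transcripts were called. The shares can be lower where fewer transcripts change, because the adjustment is then stricter.

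**Figure D1:**
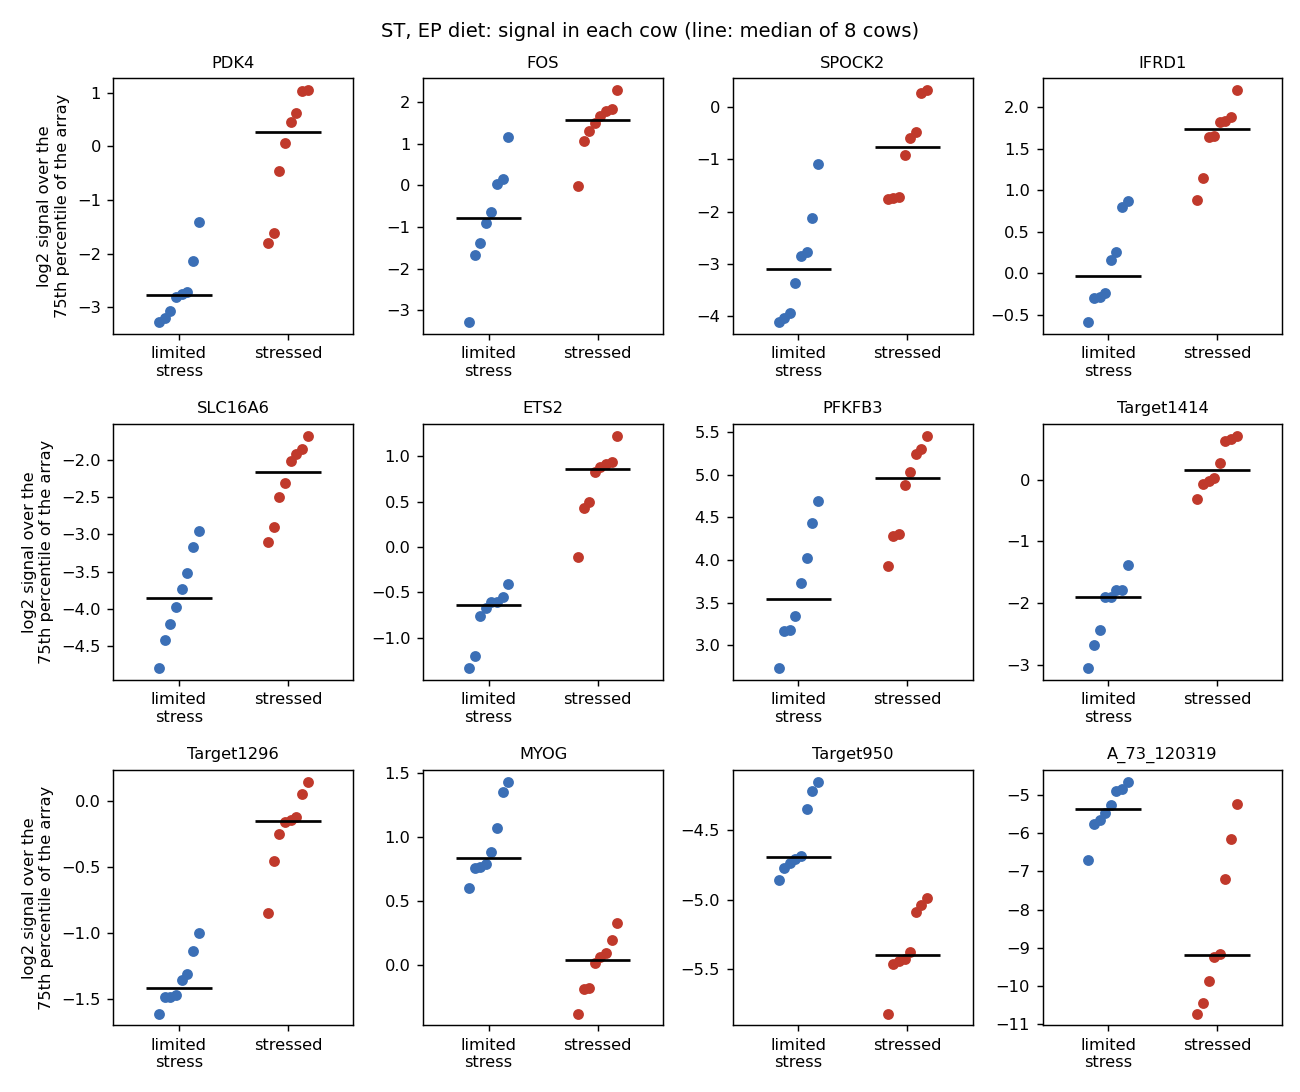
Level of 12 called transcripts in each cow of the ST on the EP diet. The y axis is the log2 signal over the 75th percentile of the array, each point is a cow (8 with limited stress, blue, and 8 stressed, red) and each line is the median of 8. The groups did not overlap for IFRD1 (named probe), ETS2, Target1414, Target1296, MYOG and Target950, and A_73_120319 split the stressed cows into 3 high and 5 low.

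The probes behind the genes described first are shown because each gene was measured by a named probe and by a custom set designed on the same stretch. The 30 bases printed for each, out of a probe of 60, all lie within the run shared by both, which the capitals mark.
PDK4: TTGTCCTTTGCTTTCTTGGTTATGCCCCAA
FOS: ACATGTGGAAAGTGAACTTGAATGAAAAAT
ETS2: CATGGAAAATCAAATCCATGGTAAACCTTT
IFRD1: AACACTAATTTTATCTGCTGTGTAAGACCT
MYOG: ATTAATTTTGTTAACTAAGCATTGTGTGGT
The array's annotation placed the whole probes on the Btau_3.1 build at chr4:13136666-13136725 for PDK4 (minus strand), chr10:88963194-88963253 for FOS (plus), chr1:154613697-154613756 for ETS2 (plus) and chr4:58263865-58263924 for IFRD1 (minus). It gave no position for MYOG. Whether a probe lies in a coding exon or a UTR was not analysed here.

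Transcription regulators were described first. FOS, which pairs with JUN in the AP-1 factor, had levels from -3.29 to 1.17 (median -0.77) in cows of limited stress and from -0.01 to 2.30 (median 1.58) in stressed cows. The groups overlapped, yet 6 of the 8 stressed cows exceeded every cow of limited stress. FOS rose by 2.25 ± 0.53 on the log2 scale (4.75-fold, adjusted p = 0.0298), and the custom set gave 2.27 ± 0.53. ETS2, an ETS-family factor downstream of MAP kinase signalling, ran from -1.33 to -0.40 (median -0.64) in cows of limited stress and from -0.11 to 1.23 (median 0.86) in stressed cows, with no overlap. Its log2 fold change was 1.47 ± 0.19, with an adjusted p of 3.96e-05. IFRD1, a co-regulator that acts through histone deacetylases in muscle differentiation, ran from -0.59 to 0.87 (median -0.04) and from 0.88 to 2.21 (median 1.74) in the same order. The highest cow of limited stress and the lowest stressed cow almost met, and the log2 fold change was 1.55 ± 0.24 (adjusted p = 0.000257). The custom set of IFRD1 gave 1.60 ± 0.26, and there the groups overlapped, with limited stress up to -0.09 and stressed cows from -0.13.

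Another regulator, HES6, a basic helix-loop-helix factor that favours myoblast differentiation, was dim. Its level lay between -6.89 and -5.64 (median -6.50) in cows of limited stress and between -5.95 and -3.92 (median -5.05) in stressed cows, 7 of which exceeded all the others. HES6 rose by 1.42 ± 0.37 (adjusted p = 0.0662), and the call was kept in 6 of 16 fits that each left out 1 cow. MYOG, the myogenic factor of terminal differentiation, went the other way. It lay between 0.60 and 1.44 (median 0.84) in cows of limited stress and between -0.38 and 0.32 (median 0.04) in stressed cows, without overlap. MYOG gave a log2 fold change of -0.97 ± 0.16 (adjusted p = 0.000671), and the custom set gave -0.97 ± 0.16. With the control features as reference neither MYOG transcript was called (-0.83 for Target1111, the custom set, and -0.82 for the named probe). LMO4, a LIM-only cofactor that bridges transcription factors, fell by 0.29 ± 0.07 (adjusted p = 0.03). Its levels spanned 0.26 to 0.57 (median 0.45) in cows of limited stress and 0.03 to 0.30 (median 0.14) in stressed cows, a narrow spread in both, with 7 stressed cows below all the others. LOC785799, named as the zinc finger gene ZNF7, gave -0.55 ± 0.14 (adjusted p = 0.0746). It was dim, well above background in 7 of 8 cows of each group, and its sign turned with normexp background correction (0.23).

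A list of transcription factors was taken from the study itself, which drew it from these arrays with cows of both diets, so it is not independent evidence. On the array 7 of these factors had 11 tested transcripts, of which 5 were called higher and 2 lower. ATF3, a stress-induced factor of the ATF/CREB family, was not called (1.83 ± 0.58, adjusted p = 0.295). Its levels ran from -1.68 to 0.46 (median -0.24) in cows of limited stress and from -0.47 to 2.81 (median 1.21) in stressed cows, and the 16 arrays fitted alone called it. ATF3 was also called higher in the ST on the control diet (2.06 ± 0.58) and in the LT on the EP diet (1.59 ± 0.37). CEBPD, a CCAAT/enhancer-binding factor of acute stress, gave 0.93 ± 0.32 by its named probe (adjusted p = 0.45) and 1.17 ± 0.34 by a second probe (adjusted p = 0.166). In limited stress, 1 cow had a CEBPD level of -2.88, well above the next at -4.31. Both CEBPD probes were called higher in the ST on the control diet (1.78 and 2.16) and in the LT on the EP diet (1.43 and 1.74). HEYL, a Notch target, gave 0.46 ± 0.25 (adjusted p = 0.868). It was called in the LT on the EP diet (0.71 ± 0.20) but not in the ST on the control diet (0.58 ± 0.25).

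Genes of fuel use held the largest increase. PDK4 encodes the kinase that inactivates the pyruvate dehydrogenase complex and so spares glucose. Its level lay between -3.28 and -1.42 (median -2.78) in cows of limited stress and between -1.81 and 1.05 (median 0.26) in stressed cows. Of the 8 stressed cows, 6 lay above every cow of limited stress. PDK4 rose by 2.59 ± 0.46 on the log2 scale (6.02-fold, adjusted p = 0.00123), it was positive on each of the 5 slides (1.70 to 4.25), and the custom set gave 2.50 ± 0.45. SLC16A6, a member of the monocarboxylate transporter family, ran from -4.80 to -2.95 (median -3.85) and from -3.10 to -1.67 (median -2.16). All but 1 stressed cow exceeded the other group, and the log2 fold change was 1.56 ± 0.34 (adjusted p = 0.0159). PFKFB3, whose product makes the fructose 2,6-bisphosphate that drives glycolysis, was among the brighter transcripts, with levels from 2.73 to 4.69 (median 3.54) and from 3.93 to 5.46 (median 4.96). Its log2 fold change was 1.14 ± 0.26 (adjusted p = 0.0207) and that of its custom set 1.34 ± 0.29. On 1 of the 5 slides the PFKFB3 difference was negative (-0.40). Of 53 transcripts in the list of fuel use, 6 were called higher, all of PDK4, SLC16A6 and PFKFB3, and none lower, with a median of 0.02. Among those not called, the lowest unadjusted p belonged to SLC2A8, a glucose transporter (0.51 ± 0.18, unadjusted p = 0.00854), and SLC25A25, a mitochondrial carrier (0.40 ± 0.16, unadjusted p = 0.0187), both named after their values were seen. The kinases related to PDK4 gave 0.13 ± 0.10 (PDK2) and 0.01 ± 0.12 (PDK3).

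The extracellular matrix and the cell surface gave another 3 genes. SPOCK2, a matrix proteoglycan also called testican 2, ran from -4.12 to -1.08 (median -3.11) in cows of limited stress and from -1.75 to 0.33 (median -0.76) in stressed cows. Its log2 fold change was 2.22 ± 0.46 (adjusted p = 0.00878), positive on each slide but from 0.38 to 3.48. HYAL2, a hyaluronidase of the cell surface, gave a small change of 0.44 ± 0.11 (adjusted p = 0.0498) with no overlap. Cows of limited stress ran from -1.30 to -0.84 and stressed cows from -0.80 to 0.02 (median -0.70). PLAUR, the receptor of the urokinase plasminogen activator, ran from -8.28 to -6.94 (median -7.38) and from -6.60 to -4.30 (median -6.37), again with no overlap (1.45 ± 0.38, adjusted p = 0.0741). It was well above background in 6 of 8 cows of limited stress and in all 8 stressed cows, and it was not called with slide in the model (adjusted p = 0.128).

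The remaining named genes concerned growth arrest, the cytoskeleton and chaperones. GADD45A, a growth arrest gene induced by DNA damage and stress, ran from -0.55 to 0.74 (median 0.08) and from 0.32 to 1.31 (median 0.96). The log2 fold change was 0.83 ± 0.22 (adjusted p = 0.096). It was called in 4 of 16 fits without 1 cow and not with slide in the model (adjusted p = 0.196). GEM, a small GTP-binding protein that restrains calcium channels and cytoskeletal contraction, gave 0.83 ± 0.21 (adjusted p = 0.0665), and TUBB6, a beta-tubulin, 0.77 ± 0.19 (adjusted p = 0.0504). The custom set of TUBB6 gave 0.56 ± 0.17 and was not called, with an unadjusted p of up to 0.936 over its probes. ABRA, an actin-binding activator of SRF signalling, gave 0.51 ± 0.20 (adjusted p = 0.602). HSPA1L, an HSP70-family chaperone, was the only heat shock transcript of 33 to be called, at -0.73 ± 0.19 (adjusted p = 0.0807). It was near background, well above it in all 8 cows of limited stress and in 6 of 8 stressed cows. It was called in 5 of 16 fits without 1 cow, and with normexp background correction its sign turned (0.11). The inducible HSPA1A gave 0.02 ± 0.12.

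Several called transcripts carried no gene name, and their probes are printed so that they can be identified. The first 30 bases of the first probe are given for each custom set, and of the single probe for A_73_120319 and ENSBTAT00000056858, in lower case because no bases were compared.
Target1414: gtggtttaaatgtggtgtgtctcaagctgg
Target1296: atgtatatacggggcccttctgatgccaag
Target950: tatctagtggccctgaggagctaatgctgt
A_73_120319: acactgtaccacaggaagaaagtgacaatt
ENSBTAT00000056858: ttccagacaattgttatttccttccctttc
On the Btau_3.1 build, the array's annotation placed A_73_120319 at chr16:59128999-59129058 (minus strand) and ENSBTAT00000056858 at chr11:21928189-21928248 (minus). Target1414 had the most separated groups among the larger changes: its level lay between -3.05 and -1.37 (median -1.90) in cows of limited stress and between -0.31 and 0.71 (median 0.15) in stressed cows. The log2 fold change was 2.35 ± 0.35, with adjusted p up to 0.000257 over its probes, and it ranged from 2.06 to 3.03 between slides. Target1296 did not overlap either, with medians of -1.42 and -0.15 (1.14 ± 0.20, adjusted p up to 0.00182). Target950 fell by 0.77 ± 0.17, from levels of -4.86 to -4.15 to levels of -5.82 to -4.99. ENSBTAT00000056858 fell by 0.60 ± 0.15, without overlap. Target1605 (0.76 ± 0.20), TC321558 (1.30 ± 0.34) and DT811267 (-0.37 ± 0.09) overlapped between the groups, and of these Target1605 and TC321558 were not called with slide in the model.

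A_73_120319 was lower in stressed cows, and the difference came from part of the cows. In cows of limited stress its level lay between -6.70 and -4.65 (median -5.36), well above background in 8 of 8. In stressed cows it lay between -10.73 and -5.24 (median -9.19), well above background in 3 of 8. The log2 fold change was -3.10 ± 0.69 (adjusted p = 0.0187), and between slides it ranged from -5.69 to -0.41. In 5 of the 8 stressed cows the signal was at background, so the size of this fold is set in part by background and is not a measured level. The same 3 stressed cows were above background in the LT, and the other 5 were not in either muscle. Whether this difference follows the stress or the cows that fell into each group was not tested.

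**Figure D2:**
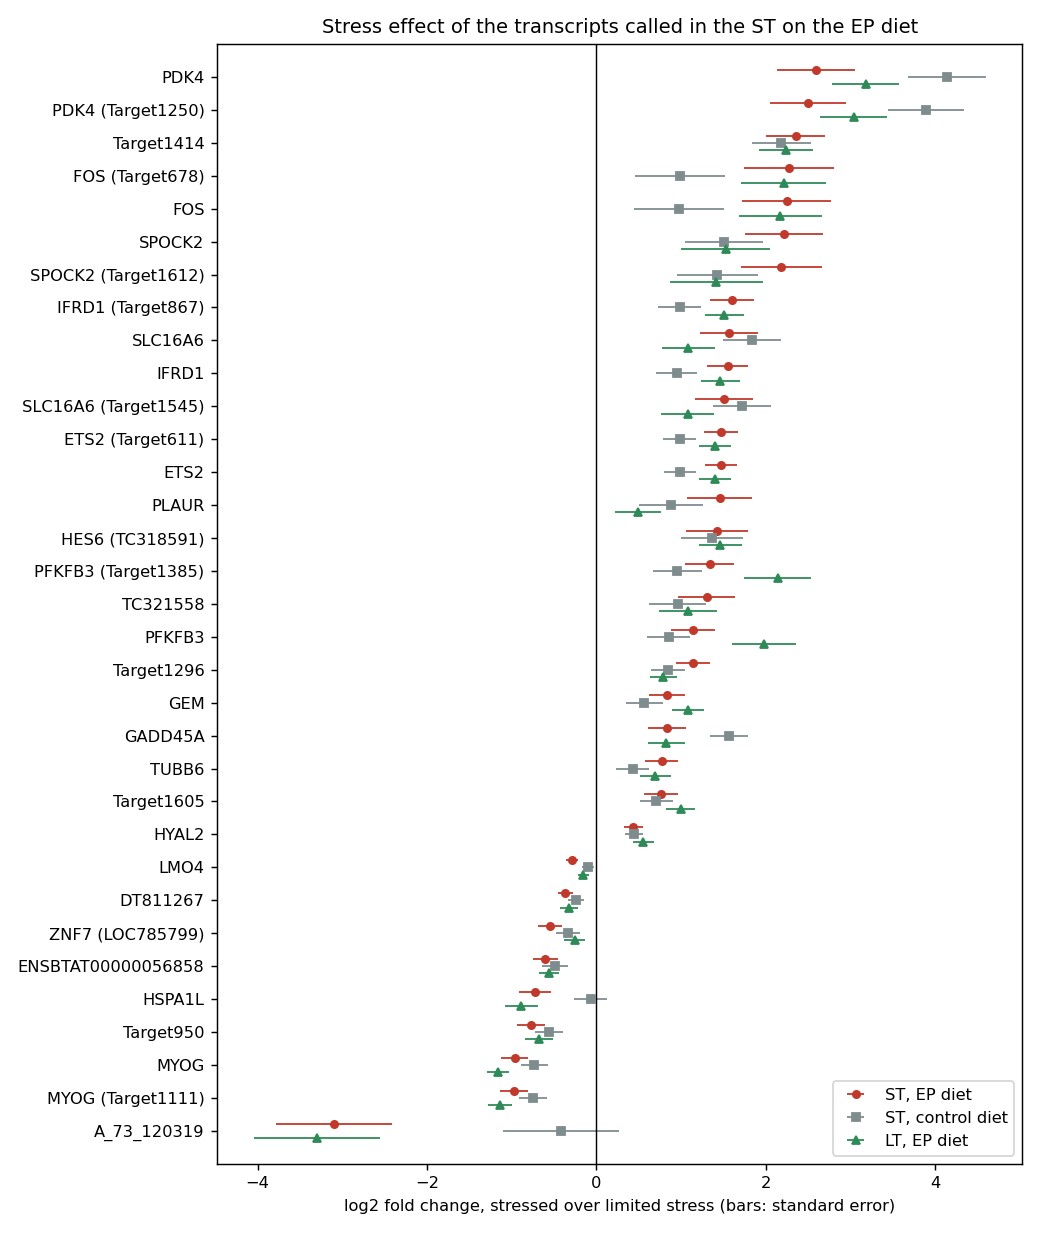
Stress effect on the 33 transcripts called in the ST of cows on the EP diet, with the ST of the control diet and the LT of the EP diet beside it. The x axis is the log2 fold change of stressed cows over cows of limited stress and bars are standard errors (8 cows against 8 for each symbol). All 33 lay on the same side of 0 in the 3 comparisons. Over all transcripts the sign was shared by 61.9% between the diets, and the share between the muscles was not counted. PDK4 was higher still on the control diet (4.14), where stress and slide were largely confounded.

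Groups of genes were then read against the 0.777% of all transcripts that were called and the median of -0.05. The lists were chosen with earlier results of these data known, so their counts and medians are not independent evidence. Of 16 transcripts of immediate early genes, 15 lay above 0, 6 were called higher (FOS, ETS2 and IFRD1, each by a named probe and a custom set) and none lower, with a median of 1.41. EGR1 (1.35 ± 0.55), JUNB (1.19 ± 0.45) and FOSL1 (1.81 ± 0.63), named after their values were seen, were not called, and JUN gave -0.07 ± 0.18. The custom sets of JUNB (0.67 ± 0.30) and FOSL1 (1.02 ± 0.48) gave smaller values and were not called either. Of 13 transcripts of glucocorticoid response genes, 3 were called higher, those of PDK4 and GADD45A, with a median of 0.31. DUSP1, a phosphatase induced by glucocorticoids, gave 0.31 ± 0.15 and MSTN, the growth inhibitor myostatin, gave -0.44 ± 0.34, neither called. In the list of myogenic and Notch genes, 1 of 23 transcripts was called higher (HES6) and 2 lower (both of MYOG). MYOD1, the factor upstream of MYOG in differentiation, gave -0.46 ± 0.34. Of 21 transcripts of actin and SRF genes, 2 were called higher (GEM and TUBB6), and of 12 of growth arrest and apoptosis, 1 (GADD45A).

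Antioxidant genes, the group the diet bears on most directly, showed no called transcript among 33 from 21 genes, and their median (-0.06) was close to that of all transcripts. Values ran from -0.23 (PRDX6) to 0.17 (MT2A). In limma, the lowest unadjusted p belonged to PRDX6 (-0.23 ± 0.10, unadjusted p = 0.0312), PRDX5 (-0.13 ± 0.06, unadjusted p = 0.0506), SOD1 (-0.20 ± 0.12, unadjusted p = 0.0973) and GSTP1 (-0.20 ± 0.13, unadjusted p = 0.144), with adjusted p from 0.74 to 0.905. PRDX6, a peroxiredoxin that also acts on phospholipid peroxides, ran from 1.69 to 2.48 (median 2.23) in cows of limited stress and from 1.70 to 2.15 (median 1.97) in stressed cows. SOD1, the cytosolic superoxide dismutase, ran from 1.21 to 1.85 (median 1.40) and from 0.98 to 1.84 (median 1.25). The ranges overlapped for both genes, while 8 of 8 stressed cows for PRDX6 and 7 of 8 for SOD1 lay under the median of limited stress. How many of all transcripts did so was not counted, and only 34.6% of all transcripts had a fold change above 0. The custom sets gave smaller falls, -0.18 ± 0.11 (PRDX6), -0.07 ± 0.07 (PRDX5), -0.13 ± 0.14 (SOD1) and -0.18 ± 0.15 (GSTP1). For PRDX5 the sign turned with 2 other scalings (0.014 with control features, 0.029 without scaling), so no direction can be given for differences of this size. Of 8 transcripts of vitamin E and xenobiotic genes none was called. The 51 transcripts of the respiratory chain ran from -0.26 (COX8A) to 0.10 (COX8B), with none called. None was called either among genes of ribosome biogenesis (10 transcripts, median -0.11), proteolysis (19, median -0.00061), inflammation (15, median -0.06) or the neuromuscular junction (15, median -0.10).

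**Figure D3:**
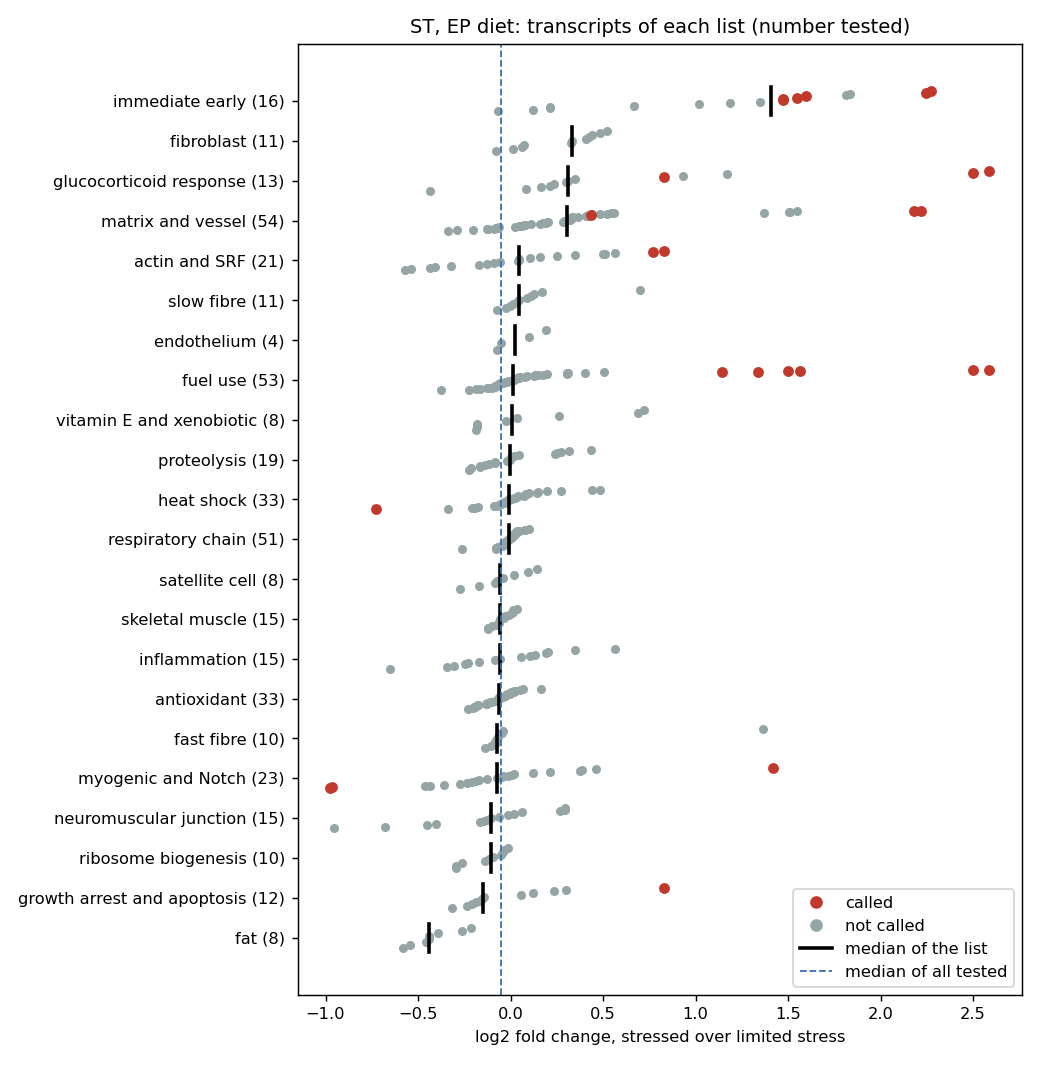
Stress effect on the members of each gene list in the ST of cows on the EP diet. The x axis is the log2 fold change, each point is a transcript (red if called, grey if not), the black bar is the median of the list, the number after each list is its transcripts and the dashed line is the median of all 4246 tested (-0.05). Immediate early genes stood at a median of 1.41, and the antioxidant list lay close to the dashed line. The lists were chosen with earlier results of these data known.

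The next question was whether the stress effect in the ST depended on the antioxidants. In the same fit, stress changed 109 transcripts of the ST on the control diet (2.57%), 39 higher and 70 lower, but with slide as a term only 10 were called. On that diet the slides were unbalanced, as 1 slide held 5 stressed cows and none of limited stress, and 3 slides held only cows of limited stress. The counts of the diets can therefore not be compared, and a control-diet effect or a difference between the diets may hold a slide effect. Among the 33 transcripts called on the EP diet, 21 were also called on the control diet, which is 63.6% of the 33 and 19.3% of the 109, and all 33 had the same sign. The sign was shared by 61.9% of all transcripts.

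The difference between the diets was tested itself, in the fit without slide, and no transcript was called (0%). The lowest adjusted p was 0.969 and 148 of 4246 transcripts (3.49%) had an unadjusted p under 0.05 for every probe. In simulated arrays this test recovered 25.4% of differences of 0.5, 61.2% of differences of 1 and 93.9% of differences of 2. The simulation held 67, 67 and 66 true differences of these sizes, and 9 unchanged transcripts were called. The adjustment is stricter where fewer transcripts differ, so these shares do not carry over to a test without any call. Among the 33 transcripts, 4 had an unadjusted p under 0.05. The 33 were chosen by their effect on the EP diet, which enters this difference, so such differences can be too large. A_73_120319 gave -3.10 with antioxidants and -0.42 without them, a difference of -2.68 ± 0.97 (95% interval -4.66 to -0.69, unadjusted p = 0.00986), whose size rests in part on the same background signals. PDK4 rose by 2.59 with antioxidants and by 4.14 without them, a difference of -1.55 ± 0.65 (-2.88 to -0.22, unadjusted p = 0.0239). GADD45A differed by -0.74 ± 0.32 (unadjusted p = 0.0268), from 0.83 to 1.57, and HSPA1L by -0.66 ± 0.27 (unadjusted p = 0.0224), from -0.73 to -0.07. None of these passed the adjustment over all probes. FOS showed the opposite order, 2.25 with antioxidants against 0.97 without them, with an interval of the difference from -0.25 to 2.79. For ETS2 (0.48, interval -0.08 to 1.04), IFRD1 (0.60, -0.09 to 1.29) and MYOG (-0.23, -0.71 to 0.24) the intervals also held 0.

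**Figure D4:**
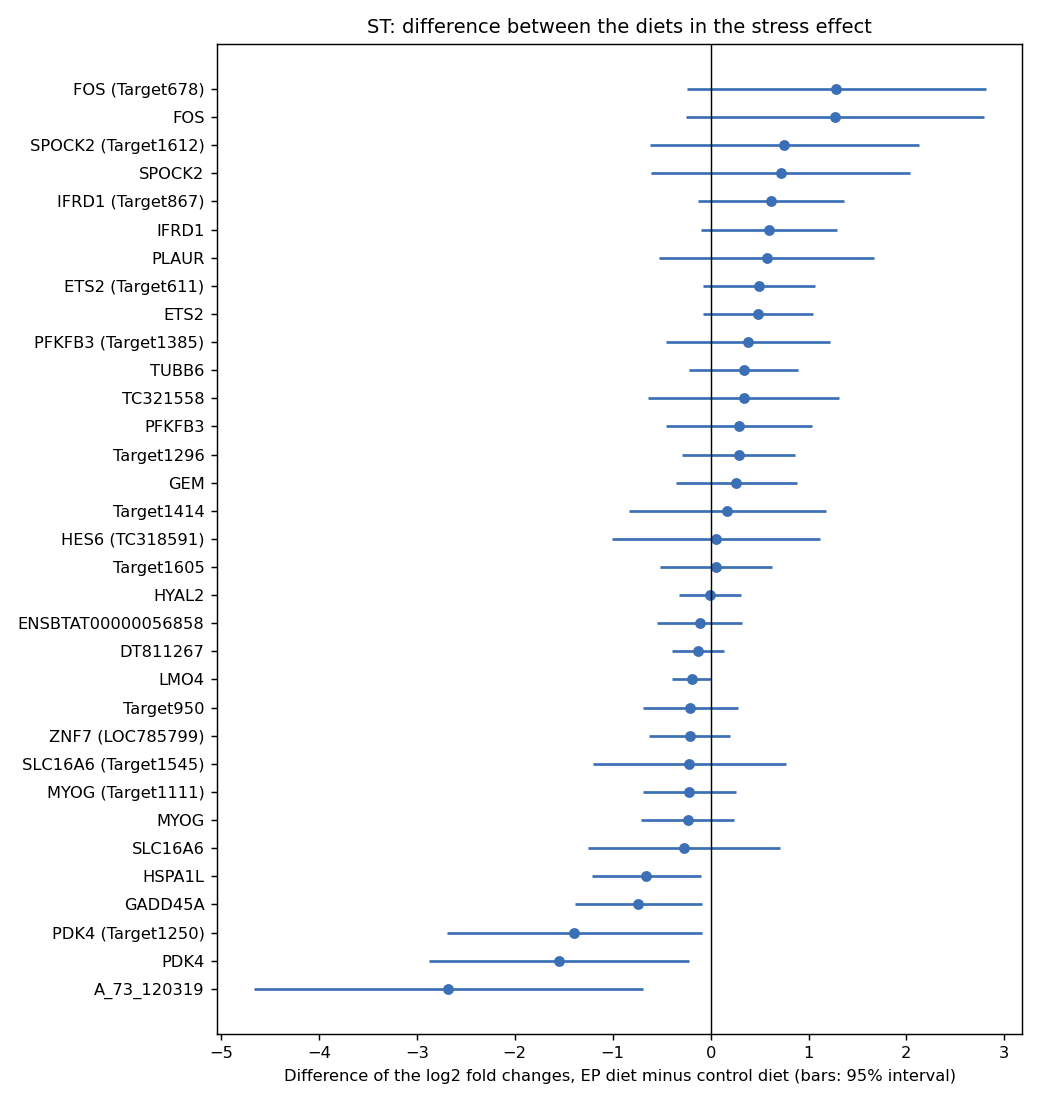
Difference in stress effect between the diets for the 33 transcripts called in the ST on the EP diet. The x axis is the log2 fold change on the EP diet minus that on the control diet, points are the estimates and lines their 95% intervals from limma. Most intervals held 0, and none of the differences passed the adjustment over all probes. Slide was not in this fit, and on the control diet it was largely confounded with stress.

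The transcripts with the lowest p for the diet difference were none of the called ones. OMD, the matrix proteoglycan osteomodulin, gave 0.28 ± 0.20 with antioxidants and -0.94 ± 0.20 without them, a difference of 1.22 ± 0.29 (unadjusted p = 0.000186, adjusted 0.969). It was dim, well above background in 4 of 8 cows of limited stress and 7 of 8 stressed cows on the EP diet, and in 6 and 2 of 8 on the control diet. CRAT, the carnitine acetyltransferase of mitochondria, was bright, with EP levels from 2.54 to 3.21 and from 2.34 to 2.96 in the 2 groups. It gave -0.25 ± 0.10 and 0.23 ± 0.10, a difference of -0.48 ± 0.15 (unadjusted p = 0.00238). ACTL11 (1.29 ± 0.39) and MFRP (0.88 ± 0.27) were again near background, ACTL11 well above it in 4 and 6 of 8 cows on the EP diet and MFRP in 3 and 7.

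The last comparison set the ST beside the LT of the same 16 cows on the EP diet. In the fit of these 32 arrays, stress changed 48 of 4230 transcripts in the ST and 90 in the LT (2.13%), 58 higher and 32 lower. All 33 transcripts called in the ST, in the fit of the 32 ST arrays, had the same sign in the LT, and 25 were called there. The 2 muscles came from the same cows, and the share of all transcripts with the same sign in both was not counted. The 8 that were not called in the LT were both transcripts of SPOCK2 (1.53 ± 0.53 by the named probe), the custom set of SLC16A6 (1.08 ± 0.31), PLAUR (0.49 ± 0.27), LMO4 (-0.15 ± 0.07), LOC785799 (-0.26 ± 0.12), TC321558 and DT811267. A call in one muscle alone does not show a difference. The test of the difference gave 1 of the 33 an unadjusted p under 0.05, PLAUR (0.96 ± 0.38, unadjusted p = 0.0169), which did not pass adjustment. Of all transcripts, 23 (0.544%) had every p under 0.05. This fit took the 2 arrays of a cow as independent, although they correlated at 0.339, so its p-values do not use the pairing.

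Over all transcripts, the stress effect differed between the muscles for 2 of 4230 (0.0473%) in this unpaired fit, both lower in the ST. They were the custom set of MYF6 (Target1086), the myogenic factor most abundant in adult muscle, and the unnamed set Target1864. For MYF6 the 30 bases printed are those its named probe shares with Target1086, in capitals, and for Target1864 they are the first 30 of its first probe, in lower case.
MYF6: TTAGGAAGCCAGACCCAGGAGTTTATGATA
Target1864: tgataactgccaaggaaggagggacaagca
In the ST, Target1086 had levels of 2.14 to 2.57 (median 2.34) in cows of limited stress and of 1.68 to 2.28 (median 2.19) in stressed cows. In the LT it had levels of 1.61 to 2.33 (median 2.00) and of 2.19 to 2.82 (median 2.60). The stressed cows were thus higher in the LT (0.55 ± 0.11, limma adjusted p up to 0.00537, fit of the EP diet). In the ST the estimate was -0.23 ± 0.20 (limma unadjusted p up to 0.299), but from the fit of the 32 ST arrays. The spread of that fit takes in the control diet, where the SD of the stressed cows was 0.74, against 0.22 on the EP diet. This p therefore does not show that the ST was unchanged. The difference between the muscles was -0.79 ± 0.16 (adjusted p up to 0.0687). For Target1864 it was -0.82 ± 0.17 (adjusted p up to 0.0569). The named probe of MYF6 gave -0.77 ± 0.18 and was not called (adjusted p = 0.132), but with the cow as a replicate block it was (adjusted p = 0.0111). With slide as a term neither custom set was called (adjusted p = 0.648), whereas slide and the cow block together called all 3 (adjusted p up to 0.0883). In simulated arrays this test recovered 37.3% of differences of 0.5 and 74.6% of differences of 1. The simulation held 67 true differences of each of these sizes, and 14 unchanged transcripts were called. With only 2 calls in the data, where the adjustment is stricter, these shares may be too high.

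**Figure D5:**
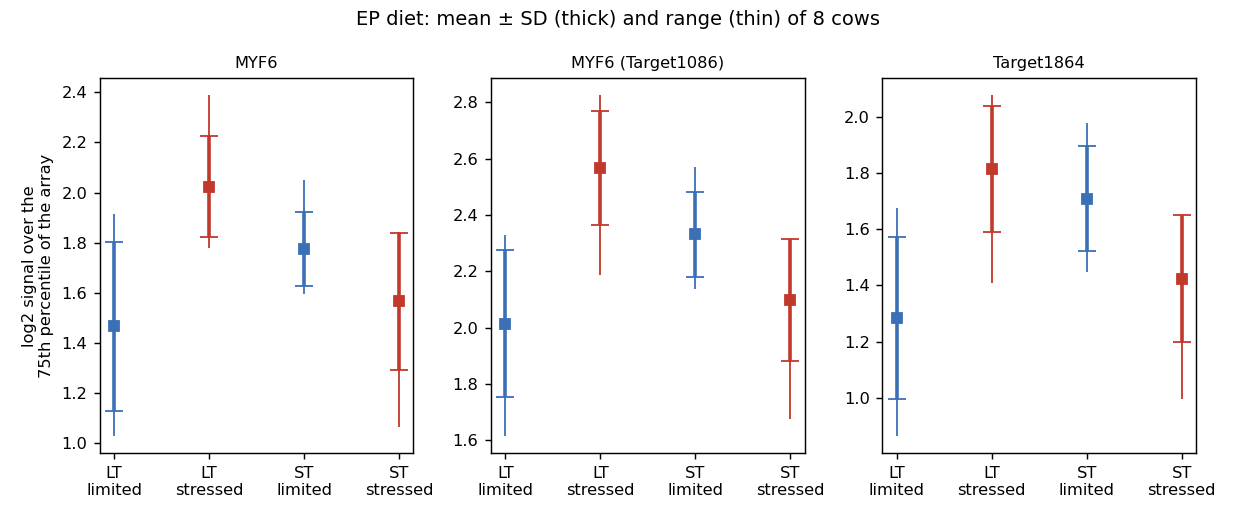
Level of MYF6 (named probe), its custom set Target1086 and Target1864 in both muscles of cows on the EP diet. The y axis is the log2 signal over the 75th percentile of the array, squares and thick bars are the mean and SD and thin lines the range of 8 cows (blue for limited stress, red for stressed). The mean of the stressed cows lay above that of limited stress in the LT and below it in the ST, and the ranges of the groups overlapped in both muscles.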

How the data were processed

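RNA of each muscle was amplified from a poly-dT primer, labelled with Cy3 and hybridised alone to a custom Agilent array. The deposited intensity values were the processed signals of Feature Extraction 10.1, which the authors' software had corrected for background, and the deposited table held the same signals unscaled. Here, log2 signals were scaled to the 75th percentile of the 13414 non-control spots, flagged outlier spots were left out and spots of a probe were averaged. A probe was tested in a muscle if Feature Extraction marked it well above background on 11 or more of its 32 arrays. The number of arrays limits the precision. limma 3.58.1 (R 4.3.3, statmod 1.5.0) was fitted to the 32 ST arrays in 4 groups, or to the 32 arrays of the EP diet for the muscles, with no covariate. The study scaled to control features, which was run as an alternative.

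Named transcripts were the 12 called with the highest log2 fold change and the 9 that were called lower, called list members, the study's common transcription factors and 7 genes it described, the 4 lowest p in each test of a difference and among antioxidant genes, and those called under every alternative. PLAUR, TC321558 and Target1605 were added after their values were seen. Members and lists were chosen with earlier results of these data known. Of 1945 custom sets, 875 were named where a probe shared at least 25 consecutive bases with probes of 1 named gene, and no other name was given. Names follow the array files, 33 transcripts were named from their description and 69 from a RefSeq table. SMAD7 had no probe named here. Alternatives were the scaling, background correction, filter, slide, scan day, threshold, probe averaging and, chosen after seeing the data, each of the 16 cows left out in turn. The procedure was tested on simulated data. The cow pairs the muscles, and the 2 arrays of a cow correlated at 0.339 (the consensus correlation of duplicateCorrelation).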

Additional observations from a re-analysis of the deposited data

Results flagged for a closer look

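The stress effect on 2 transcripts differed between the muscles of the same cows on the EP diet, by the test of the difference over 4230 transcripts, which did not use the pairing by cow. It was -0.79 for MYF6 (Target1086) and -0.82 for Target1864, ST minus LT.

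Among 100 groups of 8 cows examined, 1 cow stood apart from the other 7 in 5 groups by Dixon's test, and chance gives about 1 in 20. The gap of that cow to its nearest neighbour, as a share of the whole range, was 0.615 for HYAL2 in a stressed cow. In limited stress it was 0.651 for CEBPD and 0.606 for its second probe (TC310369), in the same cow, and 0.55 for MFRP in another. It was 0.565 for SOD1 in a stressed cow. The HYAL2 level of that cow was 0.020 against the next at -0.49, and the SOD1 level 1.84 against 1.36.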

How the results depend on the processing

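The count of 33 called transcripts stayed between 24 and 36 under 9 of the 11 other settings tried. It was 19 both with the control features as reference and after normexp background correction, and all 19 were among the 33 in each case. The fit of the 16 arrays alone called 33, of which 25 were shared, and without scaling 36 were called, of which 27 were shared. It ranged from 23 to 34 when 1 cow was left out, the lowest without either of 2 cows of limited stress. In all, 11 transcripts were called in every one of these fits: those of PDK4, FOS, IFRD1 and ETS2, the named probe of SLC16A6, Target1414 and Target1296. The other 22 lost their call under at least 1 of those settings, and 13 of them also when certain cows were left out. The sign turned for HSPA1L (0.11) and for ZNF7 (0.23) after normexp background correction. CDIPT, which had no stress effect in the ST (-0.01), gave 0.14 with control features, 0.22 with normexp, 0.15 without scaling and -0.049 to 0.024 without single cows, and PRDX5 gave 0.014 with control features and 0.029 without scaling. The difference between the diets had 0 calls under every alternative and without each cow. The difference between the muscles had 2 calls, 3 with the cow as a replicate block, 3 with the replicate block and slide, and 0 with control features, without scaling, with slide, with scan day or at an adjusted p under 0.05. Control features moved the median of that difference over all transcripts to 0.48. Except where stated, the cause was not tested. Probes near background (HSPA1L, ZNF7, PLAUR, OMD, ACTL11, MFRP) limit what can be read from small differences.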

Other observations

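Matrix and vessel genes lay mostly above 0 in the ST of cows on the EP diet, with 44 of 54 transcripts above 0, 3 called higher (both of SPOCK2 and HYAL2) and a median log2 fold change of 0.31, against 34.6% above 0 and a median of -0.05 over all transcripts. In the LT of the same cows the median of this list was close to that of the ST, at 0.29. On the control diet 22 of the 54 lay above 0 in the ST and the median was -0.15. Stress and slide were largely confounded on that diet, so a difference between the diets cannot be told apart from slide here. Without FN1, 35 of 45 lay above 0 on the EP diet and 22 of 45 under the control ration, with medians of 0.20 and -0.03. Fibronectin (FN1) was measured by 9 transcripts that share its sequence, so they count as 1 gene. These gave 0.31 to 0.36 on the EP diet and -0.57 to -0.46 on the control diet, with an unadjusted p of the difference from 0.0318 to 0.0509, and none passed adjustment. ADAMTS4 (1.55 ± 0.66), named after its value was seen, was not called. Of 11 fibroblast transcripts, 9 also belong to the matrix list, so the lists are not separate, and the other 2, both of FAP, gave -0.08 and 0.01. Of the 11, 10 lay above 0, with a median of 0.33 (0.28 in the LT). Their summed linear level was 4.68 to 11.1 times the 75th percentile of the array in cows of limited stress and 4.43 to 24 in stressed cows. Their part in the result was not tested.

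A_73_120319 was all or none across cows and the same in both muscles of every cow. It was well above background in 8 of 8 cows of limited stress and 3 of 8 stressed cows on the EP diet, and in 8 of 8 and 7 of 8 on the control diet. None of the 32 cows differed between the muscles. On the EP diet, the lowest level counted as above background was -7.21 and the highest not counted was -9.15, over the stressed cows of both muscles.

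PVALB, a calcium buffer of fast fibres, gave 1.37 and was not called. It was the only one of 10 fast fibre transcripts above 0, and the others lay between -0.14 and 0. Slow fibre markers had a median of 0.04. All 8 transcripts of fat markers lay below 0, from -0.58 (ADIPOQ) to -0.21 (CIDEA), with summed linear levels of 1.26 to 12.8 in cows of limited stress and 2.05 to 9.64 in stressed cows, and none was called.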
